A study of Mus musculus with 4 samples.

Results

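B cell precursors of the dura mater were picked from the single-cell RNA sequencing of CD45+ hematopoietic cells taken 3 days after sham surgery (S3) or after photothrombotic injury (PTI; D3). A kept cell with more than 1000 detected genes and at most 7% mitochondrial transcripts was counted as a precursor when it held Cd79a, at least 2 of the 6 genes Vpreb1, Vpreb3, Igll1, Dntt, Rag1 and Rag2, and none of Ighd, Fcer2a or Cd3e, with C1qa below 1.5 on the deposited natural log scale. In all, 223 of 6531 kept dura cells met the rule, 199 of 3669 at S3 and 24 of 2862 at D3. Cells with Igll1 or Dntt were set apart as pro/pre-B cells from later cells without either, and cells with Mki67, a marker of dividing cells, as cycling from resting cells. These genes therefore describe the groups by construction, and their levels are given below without being read as findings.

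All mice were adult C57BL/6J, with surgery at 8 to 10 weeks of age according to the methods, and the libraries labelled CT_dura_CD45pos and INJ_dura_CD45pos were taken as S3 and D3. Sorted cells were sequenced with the 10x Genomics 3' v3 kit, in which each molecule carries a unique molecular identifier (UMI). Each condition has 1 library and the number of mice behind it is not stated, so the variation from mouse to mouse is unknown and differences are given with no test. Intervals are 95% intervals of counting error only.

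B cells arise in the bone marrow, where a progenitor first joins the segments of the immunoglobulin heavy chain gene with the RAG1 and RAG2 recombinase, while TdT, the product of Dntt, adds bases at the joints. A finished heavy chain pairs with the surrogate light chain, made of the products of Vpreb1 or Vpreb2 and Igll1, and this pre-B cell receptor drives a burst of division. The cells then leave the cycle and rearrange a light chain gene, kappa in most cases and otherwise lambda, before IgM appears on the surface of the immature B cell.

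The surrogate light chain genes that set the earliest members apart lie on chromosome 16 (GRCm38, GENCODE vM21). Vpreb1 at chr16:16868403-16870843 and Igll1 at chr16:16860671-16863985 lie close together on the minus strand. Vpreb2 lies further away, at chr16:17980428-17981273 on the plus strand. Their upstream sequences are shown because these genes were present together in the same cells and because Vpreb1 and Vpreb2 are near copies. The stretches printed end at the base before the gene's start in RefSeq GRCm38.p6, for Vpreb2 before the earlier GENCODE start, and read 5' to 3' on the strand of the gene. The Vpreb1 stretch lies inside the wider GENCODE span of that gene, upstream of the start used here. Capitals mark CAGGTG, an E-box of the kind bound by E proteins, on either strand (CACCTG when on the opposite one), and CCCNNGGG, the core of sites bound by EBF1.
Vpreb1, chr16:16869256-16869505, minus strand: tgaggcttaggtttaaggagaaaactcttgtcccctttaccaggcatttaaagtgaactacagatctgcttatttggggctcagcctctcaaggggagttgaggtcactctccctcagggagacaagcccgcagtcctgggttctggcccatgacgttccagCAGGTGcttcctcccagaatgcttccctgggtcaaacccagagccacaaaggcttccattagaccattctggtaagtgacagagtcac
Vpreb2, chr16:17980315-17980427, plus strand: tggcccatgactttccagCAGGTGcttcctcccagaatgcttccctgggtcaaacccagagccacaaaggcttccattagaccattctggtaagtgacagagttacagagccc
Igll1, chr16:16863986-16864235, minus strand: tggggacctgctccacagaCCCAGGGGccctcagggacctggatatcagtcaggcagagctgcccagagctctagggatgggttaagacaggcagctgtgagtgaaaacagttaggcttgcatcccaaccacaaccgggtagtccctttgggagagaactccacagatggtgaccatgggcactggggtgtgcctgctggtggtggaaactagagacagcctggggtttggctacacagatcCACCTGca

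All 3 stretches hold 1 CAGGTG, which starts at base 163 of the Vpreb1 stretch and base 19 of the Vpreb2 stretch, and at base 243 on the opposite strand of the Igll1 stretch. CCCNNGGG was found in the Igll1 stretch alone, at base 20, and no motif overlapped another. The Vpreb1 and Vpreb2 stretches share a run of 91 identical bases around the E-box, from base 157 of the first and base 13 of the second. Of 32851 promoters of 250 bases, 17.2% hold CAGGTG and 11.8% hold CCCNNGGG on either strand, so these matches are common and are given as descriptions. The Vpreb1 and Vpreb2 transcripts are 96.6% identical, so the split of reads between this pair is uncertain.

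The dura libraries held 54749012 UMIs over 4795 barcodes at S3 and 55887697 over 3515 barcodes at D3, with medians of 9996 and 15191.5 UMIs in kept cells. Pairs of the 4 libraries, brain included, shared 3 to 11 barcodes, and 1 member carried a barcode also found in another library. Precursors had a median of 6385 UMIs at S3, from 2230 to 79351, and 8374 at D3. Some members also held transcripts of granulocytes. In 13 of the 199 members at S3 and 2 of the 24 at D3, Tyrobp and Fcer1g, adaptor genes of myeloid cells, reached 5 UMIs together. In these 13 cells the summed level of the neutrophil list had a median of 87100 UMIs in each 1000000 (CPM), against 628 in the other 186, and they held 13.4% of all UMIs of the S3 members. This count of 5 was chosen after seeing the data. Values are given with and without these cells, called myeloid members, where they move a result.

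The marker genes of early B lineage cells are all rule genes, so their presence in the members follows from the rule. Apart from Vpreb3 they were near 0 in other cells, in mature B cells largely by definition. The summed level of Vpreb1, Vpreb3, Igll1, Dntt and Rag1 was 4150 CPM in S3 precursors, with a median cell at 3790, and 3600 CPM at D3. It was 919 and 751 CPM in mature B cells (Ighd or Fcer2a present and at most 1 of the 6 genes), and Vpreb3 made up nearly all of that. T cells held 3.61 and 2.33 CPM and macrophages 6.26 and 2.32 CPM of the list. Granulocyte precursors held 60.9 CPM at S3, with 1 cell at 2560 CPM, and 7.53 CPM at D3. Of the T cell markers Cd3e, Cd3d, Cd3g, Trac and Lck the S3 members held 20.9 CPM together, and of the 7 macrophage markers 88.5 CPM. Rag1 had a UMI in 144 of 199 S3 members (72.4%, median 6385 UMIs per cell), in 0 of 200 T cells, which allows a share of up to 1.5% (median 7085), and in 0.469% of macrophages (median 12275.5). Its 0 of 303 in mature B cells follows largely from their definition, since 251 of them hold Vpreb3 and could hold no other of the 6 genes.

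Cells just below and just above the lower edge of the rule were alike in Vpreb3 and differed in Il7r and Ms4a1. At S3, 152 cells met every other condition with 1 of the 6 genes and 100 with 2. The former held Vpreb3 in 93.4%, Il7r in 27.6% and Ms4a1, the gene of CD20, in 70.4%, and the latter held Vpreb3 in 98.0%, Il7r in 77% and Ms4a1 in 22.0%. Among the 100 cells with 2 genes, 98 held Vpreb3 and 77 held Rag1, so most of them joined through this pair. A further 56 cells held 3 of the 6 genes, 15 held 4, 19 held 5 and 9 held all. At D3 the numbers from 2 to 6 genes were 12, 8, 2, 1 and 1.

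Precursors were a smaller share of dura cells at D3 than at S3, and by a larger factor than mature B cells. They made up 5.42% of kept cells at S3 (interval 4.71 to 6.21). At D3 their share was 0.839% (0.538 to 1.25), 6.47-fold lower, with an interval of the log2 ratio (−2.69) from −3.37 to −2.08. Pro/pre-B cells went from 69 cells (1.88%) to 8 (0.28%), 6.73-fold lower, and later cells from 130 (3.54%) to 16 (0.559%), 6.34-fold lower. Cycling members were 5.11-fold lower and resting members 7.62-fold lower. Without the myeloid members the shares were 5.07% and 0.769%.

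Mature B cells were 8.26% at S3 and 3.77% at D3, 2.19-fold lower, with a log2 ratio of −1.13 (−1.46 to −0.81) that did not overlap the interval for precursors. Cells with the precursor genes that also held Ighd or Fcer2a, outside the rule by that condition alone, were 3.68% and 0.524%, 7.02-fold lower. T cells were 5.45% and 5.35%, and granulocyte precursors, another immature population, 7.41% and 7.55%. The latter were cells outside the B lineage with at least 2 of Elane, Mpo, Prtn3, Ctsg and Ms4a3. With Elane and Mpo both above 2 on the deposited scale, they were 1.47% and 1.01% (log2 ratio −0.54, −1.24 to 0.14). Macrophages were 17.4% at S3 and 35.2% at D3. Shares are of 1 whole, so fewer precursors and more of other cells cannot be told apart. Among B lineage cells alone, the share of precursors was 21.8% (19.1 to 24.6) in S3 against 12.4% (8.13 to 17.9) in D3. In the brain 1 cell met the rule at S3 and 0 at D3, beside 478 and 68 mature B cells.

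**Figure D1:**
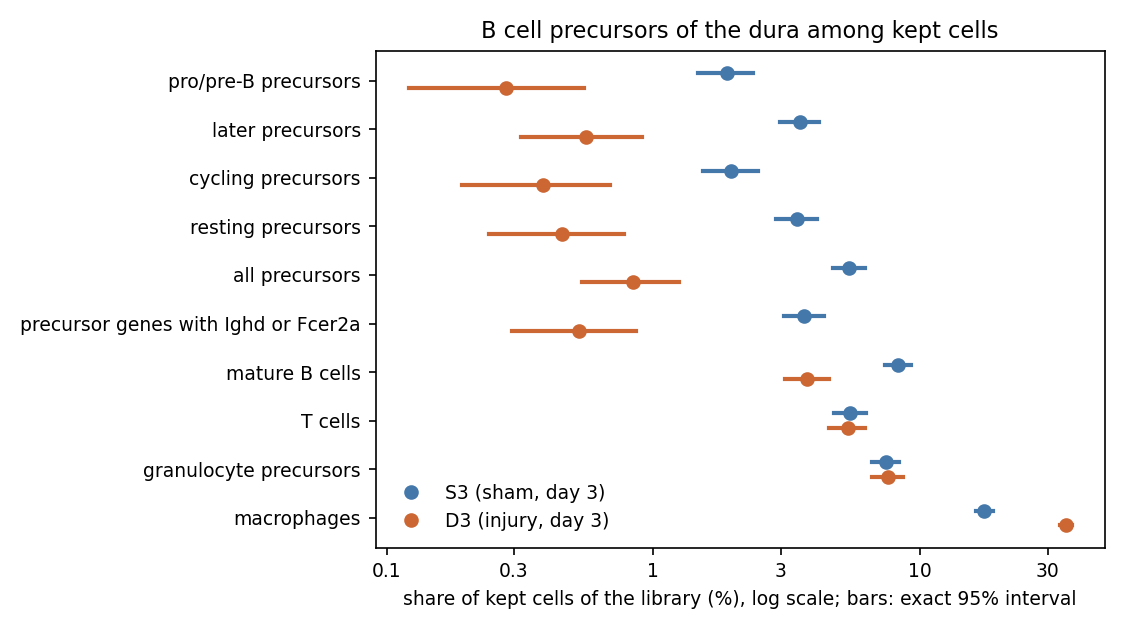
Share of kept dura cells in % on a log axis for the parts of the precursors and for other classes, S3 in blue and D3 in orange, with bars for the exact 95% interval of counting error. Every part of the precursors sat lower at D3 with intervals apart, mature B cells sat lower by less, and T cells and granulocyte precursors had intervals that overlapped.

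A difference in the make-up of the precursors between the libraries was not detectable with 24 cells at D3. Pro/pre-B cells were 34.7% of the S3 precursors (28.1 to 41.7) and 33.3% of those of D3 (15.6 to 55.3), and cycling cells 36.2% (29.5 to 43.3) and 45.8% (25.6 to 67.2). Both cuts, on Igll1 or Dntt and on Mki67, are met more readily in deeper cells, so the counts of the parts are a description. At S3, 42 of 69 pro/pre-B cells cycled (60.9%, 48.4 to 72.4) against 30 of 130 later cells (23.1%, 16.1 to 31.3), and at D3 it was 8 of 8 and 3 of 16. No resting pro/pre-B cell was found at D3, which allows up to 12.5% of its 24 precursors, beside 27 at S3. The parts differ in depth, with a median of 20688 UMIs in cycling pro/pre-B cells, 6557 in resting pro/pre-B cells, 13061 in cycling later cells and 4747.5 in resting later cells at S3. Mki67 was detected in 8.25% of mature B cells, 11.5% of T cells and 10.5% of macrophages of the same library. With every member thinned to 2000 UMIs, 25.1% of S3 and 25% of D3 precursors held Mki67. For the pro/pre-B and later cells of S3, parted before the thinning, these shares were 39.1% and 17.7%.

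The genes of the rule were spread over the parts as follows, as a description. Levels are CPM of UMIs summed over the cells of a part, set side by side for 1 gene at a time and never between genes. Vpreb1 stood at 715 CPM in cycling and 2780 CPM in resting pro/pre-B cells of S3, 4.77 and 28.9 CPM in cycling and resting later cells, and 0 in mature B cells. Igll1 stood at 561 and 1790 CPM in cycling and resting pro/pre-B cells, and Dntt at 332 and 1650 CPM. All 3 genes were thus higher per UMI in the resting pro/pre-B cells. In D3, cycling pro/pre-B cells held Vpreb1 at 586 CPM, Igll1 at 463 CPM and Dntt at 340 CPM, and 1 cell supplied 52.5% of the Dntt UMIs.

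Dntt and Igll1 did not coincide in every cell. In resting pro/pre-B cells of S3 both were found in 17 of 27, Dntt alone in 3 and Igll1 alone in 7 (25.9%). Most of the 3 cells with Dntt alone were myeloid members, and each of the 3 held 0 or 1 UMI of Vpreb3. In cycling pro/pre-B cells both were found in 10 of 42 and Igll1 alone in 32 (76.2%), although these cells were the deeper. In T cells of S3 Igll1 was found in 0.5%, and Dntt in 0 of 200.

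Rag1 stood at 398 CPM in resting and 52.6 CPM in cycling pro/pre-B cells, and at 559 CPM in resting and 110 CPM in cycling later cells. These levels were shaped by the rule, since later cells had to hold at least 2 of Vpreb1, Vpreb3, Rag1 and Rag2. Rag1 was found in 91 of the 100 shallower resting later cells, and Rag2 in 24 of them and in 21 of the 30 deeper cycling later cells. With cells thinned to 2000 UMIs, Rag1 was found in 55.6% and 11.9% of resting and cycling pro/pre-B cells, and in 67.0% and 10.0% of resting and cycling later cells. Single resting later cells ranged from 0 to 2230 CPM of Rag1 with a median of 531 CPM. Both Rag1 and Rag2 had a UMI in 36.7% of cycling and 21% of resting later cells. At D3, resting later cells held 509 CPM of Rag1 and cycling pro/pre-B cells 12.7 CPM. Rag2 varied less, at 24 and 87.4 CPM in cycling and resting pro/pre-B cells and 73.9 and 46.3 CPM in cycling and resting later cells. Vpreb3, which is kept longer than the other genes of the rule, stood at 1860, 3540, 2470 and 3490 CPM in cycling and resting pro/pre-B cells and cycling and resting later cells, and at 918 CPM in mature B cells.

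**Figure D2:**
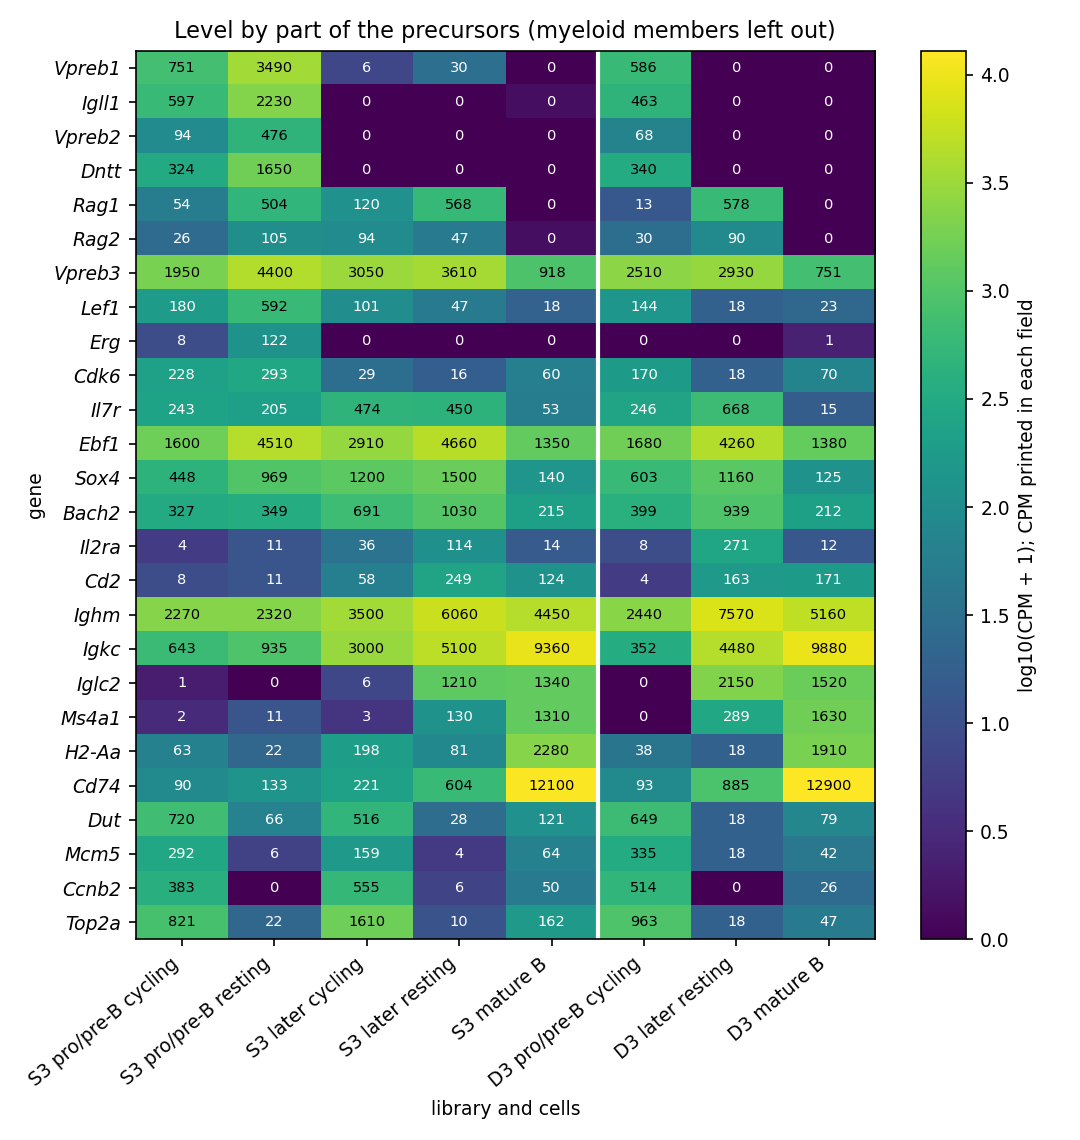
Level of 26 genes, printed as CPM and coloured by log10(CPM + 1), in the 4 parts of the S3 precursors, in cycling pro/pre-B and resting later cells of D3 and in mature B cells of both, with myeloid members left out. Vpreb1, Vpreb2 and Igll1 are high in the pro/pre-B columns, light chain constant genes the later and mature columns, and division genes the cycling columns.

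Pro/pre-B cells held less immunoglobulin light chain than later cells and more of the S phase genes, and some of the transcription factors, surface, homing and mature B cell genes were lower in them. Of 468 genes with at least 100 UMIs in the groups together in each library, 19 (4.06%) were at least 2-fold higher in pro/pre-B cells in both libraries and 28 (5.98%) at least 2-fold lower. In S3 alone the counts were 208 (5.84%) and 291 (8.17%) of 3562 genes. The median gene stood at −0.05 on the log2 scale in S3 and at 0.41 in D3, where few cells were compared. With ratios centred on that median, 13 genes were higher and 37 lower. As pro/pre-B cells cycled more often, the values within cycling and within resting cells are given beside those that change.

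Vpreb2 is not named in the rule but is no independent gene, since its transcript is close to that of Vpreb1 and reads may be split between them. It stood at 84 CPM in cycling and 376 CPM in resting pro/pre-B cells of S3 and at 0 UMIs in later and in mature B cells, where the 3 UMIs that a count of 0 allows come to 3.2 and 1.23 CPM. In D3 it stood at 67.9 CPM in cycling pro/pre-B cells.

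The 5 immunoglobulin constant genes that reached 100 UMIs were all at least 2-fold lower in pro/pre-B cells of S3, with a median of −4.27. Igkc, the kappa light chain, stood at 644 CPM in pro/pre-B and 3850 CPM in later cells of S3, a log2 ratio of −2.58, and at 352 and 2690 CPM in D3 (−2.93). The lambda gene Iglc2 was lower by more (−8.02 in S3). Ighm, the heavy chain of IgM, stood at 2160, 1970, 3000 and 5880 CPM in cycling and resting pro/pre-B and cycling and resting later cells. Every part held Ighm well above the 137 CPM of T cells and 254 CPM of macrophages. In D3 4 of 4 were lower (median −5.66). Within resting cells of S3, 5 of 5 constant genes were again lower in pro/pre-B cells (median −2.75), and within cycling cells 1 of the 2 that could be counted.

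Of the 22 B lineage transcription factors counted in S3, 1 was at least 2-fold higher in pro/pre-B cells and 10 lower (median −0.87). The one that was higher was Lef1, a factor of the Wnt pathway active in early B cells, at 225 against 59.7 CPM (log2 ratio 1.90, interval 1.5 to 2.35). It was highest in resting pro/pre-B cells, at 476 CPM, and 18.5 CPM in mature B cells. Erg, an early hematopoietic factor too rare to be counted, had 22 UMIs in resting pro/pre-B cells (96.1 CPM, interval 60.2 to 146) and none in later cells. Lower factors were Spib, which works with IRF4 on light chain enhancers, at 161 against 601 CPM (−1.90), Ikzf3, the gene of Aiolos (−1.98), Irf4 (−1.40), Bach2 at 304 against 836 CPM (−1.46), Foxo1, an activator of the Rag genes (−1.42), and Sox4 at 512 against 1260 CPM (−1.29). Within cycling cells 1 of 19 factors was higher and 7 lower, and within resting cells 2 of 21 were higher and 8 lower. In D3, 2 of 11 factors were lower and none higher.

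Of 12 genes of receptor signalling, Cd79b, the partner of CD79A, was lower in pro/pre-B cells at −1.26, as were the kinases Syk at −1.49 and Lyn at −1.14, and the other 9 differed by less than 2-fold. Cd2, an adhesion receptor gained at the late pre-B stage, stood at 9.15 against 158 CPM (−4.05) and Cd38 at 24.4 against 162 CPM (−2.71). Both were the members of the early surface list that differed, 2 of 7. Il7r, the receptor of the growth factor IL-7, stood at 232, 192, 412 and 434 CPM in cycling and resting pro/pre-B and cycling and resting later cells, and at 52.9 CPM in mature B cells. Single resting later cells held 0 to 2210 CPM of Il7r with a median of 302 CPM. Il2ra, the gene of CD25 that marks small pre-B cells, was highest in resting later cells at 116 CPM.

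Ly6d, a surface gene of committed B cells, was lower in pro/pre-B cells, at 187 against 1720 CPM in S3 (−3.20) and 166 against 2880 CPM in D3 (−4.11). Dnajc7, a cochaperone gene, stood at 333 against 1950 CPM in S3 (−2.55). The chemokine receptor Cxcr4, which holds precursors in the marrow, stood at 215 against 517 CPM (−1.26), and with Ccr7, S1pr1 and Cd44 made 4 of 7 homing genes that were lower. The survival gene Bcl2l1, encoding BCL-XL, stood at 38.9 against 132 CPM (−1.76).

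Of 16 S phase genes 15 were at least 2-fold higher in S3 (median 1.53), while 0 of 17 G2/M genes were (median 0.11). Dut, which clears dUTP, stood at 590 against 208 CPM in S3 (1.5) and 649 against 45.3 CPM in D3, and Crip1, a small LIM domain protein gene, at 1500 against 523 CPM in S3 and 1630 against 580 CPM in D3. Within cycling cells of S3, 3 of 16 S phase genes were higher (median 0.70) and 2 of 17 G2/M genes lower (median −0.72). Among cycling cells alone the S phase genes past 2-fold were thus fewer. Cdk6, a kinase of the G1 phase, stood at 241 against 28.8 CPM (3.04), and it was high also in resting pro/pre-B cells, at 354 CPM. The glycolytic genes Ldha, at 540 against 134 CPM (2.0), and Gapdh, at 1370 against 512 CPM (1.42), were 2 of 7 on their list that were higher.

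Of the other lists in S3, 0 of 4 recombination genes (median −0.19), 0 of 6 MHC class II genes (−0.63) and 4 of 6 genes of immature and mature B cells (−1.29, all lower) passed 2-fold, and for the 14 genes of dissociation and heat shock 1 was higher and 6 were lower (−0.72). Within resting cells 4 of 4 MHC class II genes were higher in pro/pre-B cells (median 3.91). Of these 27 pro/pre-B cells 3 were myeloid members, and the ratio within resting cells was not computed without them. The median of 3.91 is therefore not read as a difference between the stages. Over all S3 precursors the MHC class II genes Cd74 and H2-Aa stood lower without the myeloid members, as given below. Over cycling and resting cells together, without the myeloid members, 2 of 4 MHC class II genes were lower in pro/pre-B cells (−1.0). In that setting 14 of 16 S phase genes were higher, and 1 of 21 transcription factors was higher and 9 lower. Markers of mast cells and basophils also differed between the stages, with 4 of 5 higher and 1 lower in pro/pre-B cells of S3 (median 3.78). Their summed level was 4330 CPM in resting pro/pre-B cells, where 1 cell reached 137000 CPM and the median cell was at 0, 23.1 CPM in cycling pro/pre-B cells, 350 CPM in cycling and 63.6 CPM in resting later cells. Over all S3 precursors, Tpsb2 kept 13 of 207 UMIs and Mcpt8 0 of 116 without the myeloid members. The part of these markers in the other differences was not tested.

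**Figure D3:**
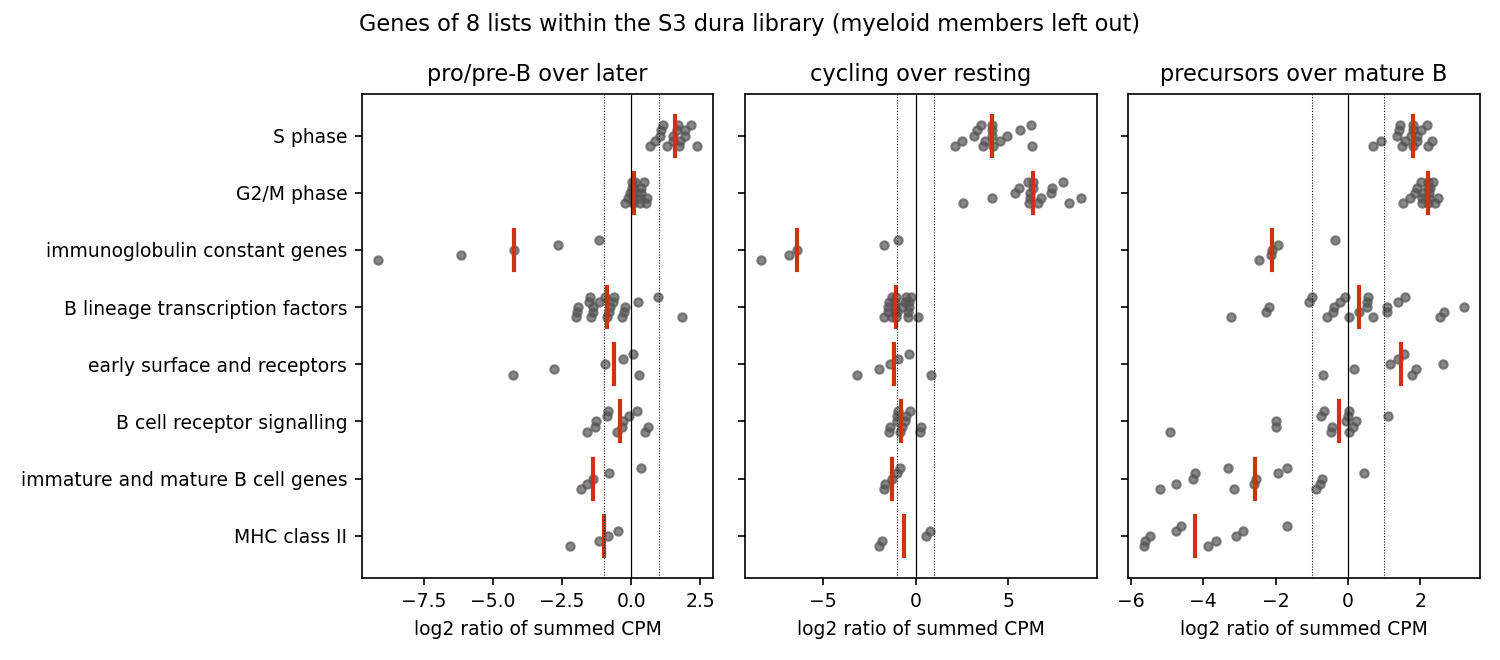
Log2 ratio in S3 of each gene (dots) of 8 gene lists for pro/pre-B over later cells, cycling over resting cells and precursors over mature B cells, with a red bar at the median of the list, dotted lines at 2-fold and myeloid members left out. Immunoglobulin constant genes lie to the left in the first panel, S and G2/M genes to the right in the second, and MHC class II genes to the left in the third.

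Cycling and resting precursors were parted by Mki67, so division genes differ by the choice of cells. In both libraries 77 of 468 genes (16.5%) were at least 2-fold higher and 27 (5.77%) lower in cycling cells, and in S3 alone 493 (13.8%) and 374 (10.5%) of 3562. In S3 all 16 S phase genes (median 3.93) and all 17 G2/M genes (median 6.38) counted were higher. Other division genes such as Ube2c, Birc5 and Ccnb2 were higher by 7.04, 8.04 and 6.40 in S3, and in D3 all 10 G2/M and all 3 S phase genes counted were higher. Top2a stood at 808 and 30.6 CPM in cycling and resting pro/pre-B cells and 1310 and 9.64 CPM in cycling and resting later cells. Mcm5, part of the replicative helicase, stood at 287 and 4.37 CPM and at 157 and 3.86 CPM in the same order.

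Several lists other than those of division were lower in cycling cells. Ebf1, the factor that commits cells to the B lineage, stood at 1830 against 4260 CPM in cycling and resting cells of S3 (−1.22), and 10 of 22 transcription factors were lower with none higher (median −0.99). Within pro/pre-B cells 6 of 19 factors were lower and 1 higher, and within later cells 4 of 20 lower. Malat1, a nuclear noncoding RNA, stood at 6100 against 29600 CPM in S3 (−2.28) and 5450 against 35500 CPM in D3, and Ly6d at 164 against 2150 CPM in S3 (−3.71). Of 5 constant genes 4 were lower in cycling cells (median −4.93), and 4 of 5 survival genes were lower (−1.08). Of the 5 mast cell and basophil markers 4 were lower and 1 higher in cycling cells (median −5.28). The resting pro/pre-B cell with 137000 CPM of these markers is among the resting cells here.

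Ccnd3, the D cyclin that acts downstream of the pre-B cell receptor, was higher in cycling cells at 710 against 277 CPM (1.36). It was highest in cycling pro/pre-B cells, at 807 CPM in S3 and 1340 CPM in D3. Ccnd2, in contrast, stood at 87.7, 100, 76.3 and 19.3 CPM in cycling and resting pro/pre-B and cycling and resting later cells, and at 295 CPM in mature B cells. Cdkn1b, the gene of the inhibitor p27, was lower in cycling cells (−1.17), and Cdkn2c, of the inhibitor p18, higher (3.1). Glycolytic genes were higher for 4 of 7 (median 1.11). Of 4 recombination genes Hmgb1 (2.21) and Hmgb2 (3.55), which are also chromatin proteins of dividing cells, were higher, and Xrcc6, which encodes Ku70 of the end joining pathway, lower (−1.21).

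Light chain transcripts followed the stages cell by cell. With a light chain counted as present at 10 or more UMIs, 85.2% of resting pro/pre-B cells of S3 had neither Igkc nor Iglc1 to Iglc3, and 54.8% of cycling pro/pre-B cells had Igkc alone and 45.2% neither. Of 30 cycling later cells 27 had Igkc alone and 1 had Iglc alone. Of 100 resting later cells 51 had Igkc alone and 24 Iglc alone, while 12 cells had both and 13 neither. Among the precursors, lambda transcripts thus appeared mainly in the resting later cells. Of 303 mature B cells of S3, 193 had both chains and 12 Iglc alone. In 0 of 200 T cells did either chain reach 10 UMIs, although 20.5% held a UMI of Igkc. Deeper cells reach a fixed number of UMIs more readily, and the cycling cells were the deeper. Depth also bears on the cut between the stages. With cells thinned to 2000 UMIs, Igll1 was found in 57.1% of cycling and 81.5% of resting pro/pre-B cells of S3. Some cycling pro/pre-B cells with 10 or more UMIs of Igkc held only 1 UMI of Igll1. Whether such cells differ in stage from cycling later cells was not tested. Scaled to each cell's total, the median was 464 CPM of Igkc in cycling pro/pre-B cells (0 to 3050), 0 in resting pro/pre-B cells (0 to 16500), 3020 CPM in cycling later cells (199 to 9440) and 2920 CPM in resting later cells (0 to 37000).

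Among resting later cells with at least 10 light chain UMIs, 43 of 89 (48.3%) had at least 90% of them from Igkc, 17 (19.1%) at least 90% from Iglc and 29 (32.6%) lay between. In mature B cells of S3 75 of 297 (25.3%), 11 (3.7%) and 211 (71.0%) did so. This share was chosen after its values were seen. At D3, 2 of 12 resting later cells had at least 90% Igkc and 5 at least 90% Iglc, which is too few cells to set against S3. Reads of Iglc2 and Iglc3 may be split between the genes, whose transcripts are 94.3% identical, so their sum is used.

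**Figure D4:**
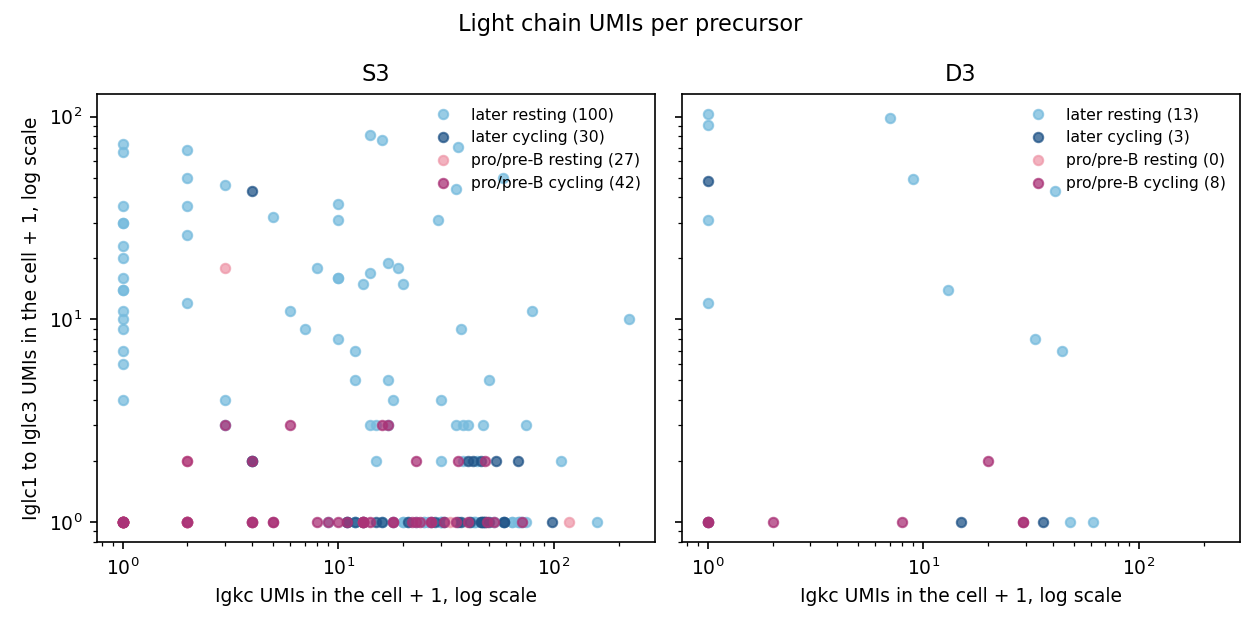
UMIs per cell of Igkc (plus 1) against the sum of Iglc1, Iglc2 and Iglc3 (plus 1) on log axes, for the members in S3 and D3, each dot a cell coloured by its part. Pro/pre-B cells lie near the Igkc axis or at the origin, and most cells high in lambda are later resting cells.

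Precursors were next set against mature B cells of the same library. In both libraries 110 of 1610 genes (6.83%) were at least 2-fold higher in precursors and 115 (7.14%) lower, and in S3 520 (8.9%) and 393 (6.73%) of 5840. The median gene stood at 0.13 in S3 and 0.12 in D3, and with ratios centred on it 89 genes were higher and 139 lower. Vpreb2 stood at 78.7 CPM in precursors and 0 in mature B cells of S3. Mast cell and basophil markers were higher in precursors for 5 of 5 in S3 (median 3.84). In the S3 precursors 1 cell held 192 of 207 UMIs of Tpsb2 and 1 cell 115 of 116 of Mcpt8. Without the myeloid members 13 and 0 UMIs of these genes were left. In D3 the markers were lower for 4 of 4 (−6.11), where mature B cells held 2540 CPM of them with 1 cell at 102000 CPM. The end joining genes Xrcc6, at 367 against 50.5 CPM (2.86), and Lig4, at 62.2 against 12.3 CPM (2.32), were among 4 of 5 recombination genes that were higher in S3. Lig4 was present at 88.7 CPM in resting later cells and Xrcc6 at 677 CPM in resting pro/pre-B cells.

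Early surface genes were higher for 6 of 8 in S3, with a median of 1.52. Il7r stood at 308 against 52.9 CPM in S3 (2.54) and 330 against 15.1 CPM in D3 (4.39), and Cd93, a receptor of immature B cells, was higher by 1.73. Transcription factors parted in both directions. Lef1 at 156 against 18.5 CPM (3.06), Sox4 at 823 against 140 CPM (2.55), Myb at 381 against 70.2 CPM (2.44), Id3 (1.51) and Bach2 at 526 against 215 CPM (1.29) were higher, while Myc (−3.44), Pou2f2, the gene of OCT2 (−2.35), Nr4a1, an early gene of antigen receptor signalling (−1.63), and Irf8 (−1.14) were lower. In D3, 5 of 20 factors were higher and 3 lower. Ebf1 and Pax5, which hold B cell identity, were present in both, Pax5 at 236 CPM in resting pro/pre-B, 476 CPM in resting later and 379 CPM in mature B cells of S3. Myl4, a myosin light chain gene, stood at 548 against 94 CPM in S3 (2.54) and 833 against 31.5 CPM in D3, and Ezh2, of the Polycomb complex, was higher at 2.36.

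Genes of mature B cells were lower in precursors for 11 of 15 in S3 (median −2.69) and 9 of 10 in D3 (−2.57). Ms4a1 stood at 31.1 against 1310 CPM (−5.39), Fcmr, the IgM Fc receptor, at −4.45, and Cxcr5, the follicle homing receptor, at −4.28. Bank1, an adaptor of the B cell receptor, stood at 8 against 274 CPM (−5.06), and Cd22 and Ptpn6, which dampen that receptor, at −2.10 and −1.97. Blnk, the linker that both receptors use, was higher at 419 against 203 CPM (1.04). In survival genes Bcl2l1 was higher at 77.8 against 17.6 CPM (2.13) and Bcl2 lower at 12.9 against 71.8 CPM (−2.46). Cxcr4 differed by 0.23 and Ccr7, which leads cells to lymph nodes, by −2.69.

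All 10 MHC class II genes counted in S3 were lower in precursors (median −2.41), and 7 of 7 in D3 (−2.78). These levels moved with the myeloid members. Cd74, the invariant chain, stood at 1300 CPM in S3 precursors against 12100 CPM in mature B cells, and at 245 CPM without those members, and H2-Aa at 439 CPM in precursors, and at 85.2 CPM without them. In 1 S3 cell lay 43.1% of the Cd74 UMIs. Without these cells the median of the list was −4.23 in S3.

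The level of single genes in precursors at D3 against S3 was examined last. Of 3959 genes 16 (0.404%) were at least 2-fold higher and 90 (2.27%) at least 2-fold lower at D3. Without the myeloid members 8 (0.225%) were higher and 68 (1.92%) lower of 3550, and 6 and 40 of these were the same genes. The shares called are small, and the D3 values rest on 24 cells. In mature B cells the same comparison gave 13 genes higher and 114 lower of 4362, so the lean to lower was not particular to precursors.

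The highest ratios came from single cells. Ifitm1 was higher at D3 by 3.49, with 66 of its 71 UMIs in 1 cell, Il1b by 3.21 with 80.5% in 1 cell and Clec10a by 1.85 with 97.3%. At S3, 1 cell held 312 of the 324 UMIs of Prss34, a basophil and mast cell protease, and 99.1% of those of Mcpt8. The neutrophil list was lower at D3 for 7 of 7 genes (median −4.21), and without the myeloid members for 0 of 4 (median −0.34). The mast cell and basophil list was lower for 5 of 5 (−3.96). Of its S3 UMIs, Tpsb2 kept 13 of 207 and Mcpt8 0 of 116 without the myeloid members. Ngp and Ifitm2 changed direction without the myeloid members, to 0.18 and −0.94. So did Ifitm1 (−1.92), Il1b (−0.33), Clec10a (−1.48) and Prss34 (0.28), each on fewer than 100 UMIs. Iglc1 was higher at D3 at 688 against 178 CPM (1.95), and 1.64 without the myeloid members, when 97 of 197 UMIs came from 1 cell.

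The HSP70 genes Hspa1a and Hspa1b were lower at D3 in the other members too. On the list of dissociation and heat shock genes 4 of 14 were lower in all members (median −0.22), these and Fos and Jun, and 2 of 13 without the myeloid members (−0.26). Without the myeloid members Hspa1a stood at 28.1 CPM at D3 and 275 CPM at S3 (−3.22, interval −4.43 to −2.36), and its copy Hspa1b at 15.6 and 189 CPM (−3.46). Hspa1a was lower at D3 also in mature B cells, at 13.7 against 267 CPM, in T cells, at 52.8 against 131 CPM, and in macrophages, at 429 against 745 CPM, so it was lower in each of these classes of the library. Without the myeloid members Nr4a1 stood at 28.1 against 122 CPM (−2.04), but at 116 against 179 CPM in all members (−0.62). With 1 library each, the injury and any difference in the handling of the tissue cannot be told apart.

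Most listed genes of B cell development differed by less than 2-fold between D3 and S3. Il7r stood at 330 CPM at D3 and 308 at S3 (0.10, −0.20 to 0.39), Ighm at 3470 and 3160 CPM (0.14), Ebf1 at 2180 and 2640 CPM (−0.28) and Cxcr4 at 292 and 341 CPM (−0.22). Ccnd3 was higher at 992 against 566 CPM (0.81), and within cycling pro/pre-B cells at 1340 against 807 CPM (0.73). None of 12 signalling, 4 recombination, 8 early surface or 17 S phase genes passed 2-fold in either direction, 1 of 22 transcription factors (Id2) was lower, and 1 of 17 G2/M genes was higher (median 0.67). Of 5 immunoglobulin constant genes 1, Iglc1, was higher (median 0.55), and of 9 immature and mature B cell genes 1, Ms4a1, at 86.7 against 31.1 CPM (1.49, 0.81 to 2.12). Without the myeloid members Ms4a1 stood at 49.9 against 35.4 CPM (0.53, −0.39 to 1.3). In that setting Cd2 was lower at 34.3 against 77.5 CPM (−1.12, −2.21 to −0.29), 1 of 6 early surface genes, Nr4a1 was the 1 of 21 factors that was lower, and 2 of 17 G2/M genes were higher (0.70). The median over all genes was −0.04.

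**Figure D5:**
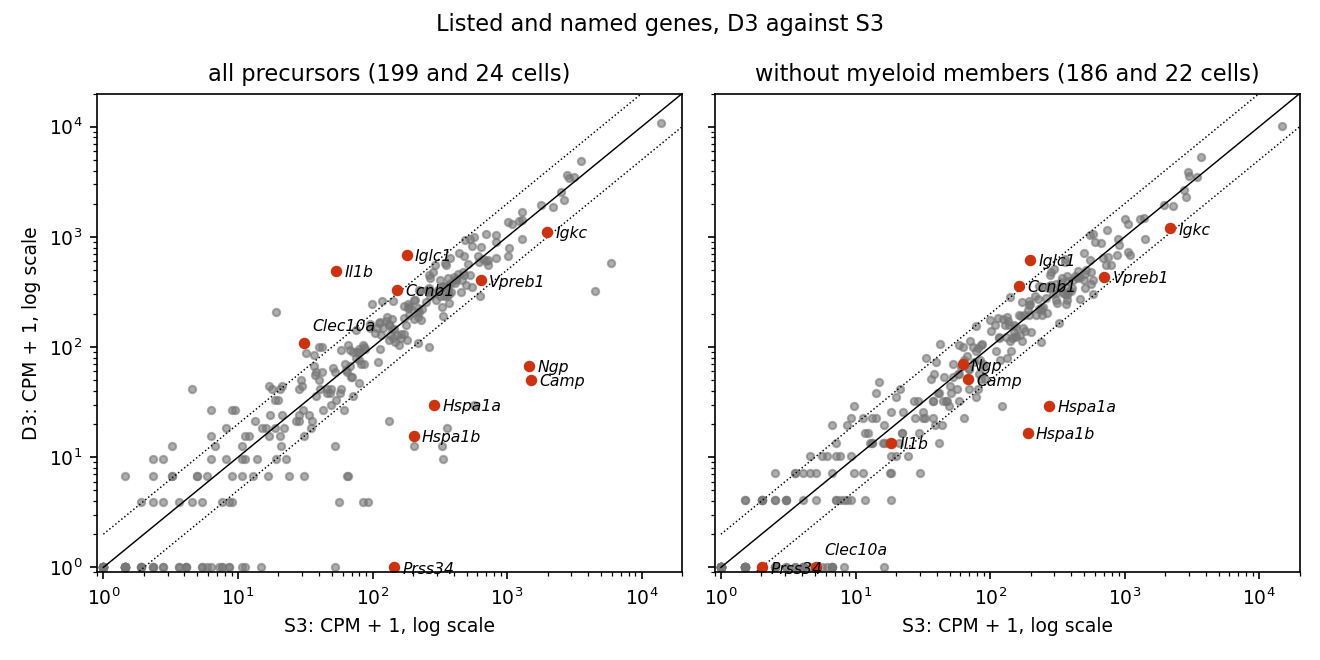
CPM plus 1 at D3 against S3 on log axes for listed and named genes in all members (left, 199 and 24 cells) and without myeloid members (right, 186 and 22 cells), with dotted lines at 2-fold. The granulocyte genes far from the diagonal on the left leave or come to the diagonal on the right, where Hspa1a and Hspa1b stay below it.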

How the data were processed

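Reads had been mapped to mm10 with Cell Ranger 3.1.0 and normalized in Seurat 3.1.0, per the submitters' processing notes. The deposited values are natural log values, in which the authors scaled every cell to 10000 UMIs and added 1 before the log. Back on the linear scale the values of a cell were whole multiples of its lowest one (tolerance 1e-06), which was taken as 1 UMI to recover the UMIs. Cells were kept with more than 1000 detected genes and at most 7% mitochondrial transcripts, with no upper limit on genes. Mature B cells held Cd79a and Ighd or Fcer2a, at most 1 rule gene, no Cd3e and C1qa below 1.5. T cells held Cd3e without Cd79a and with C1qa below 1.5, and macrophages C1qa at 1.5 or above without either gene.

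UMIs were summed over cells and given as CPM. Shares have exact Clopper-Pearson intervals, levels exact Poisson intervals, and ratios an exact interval of 2 Poisson counts. Log2 ratios used a pseudocount of 0.5 UMIs, and a gene had to hold 100 UMIs or more, both groups summed, and be none of the rule genes. A count of 0 was given the limit of 3 counts. Doublets were left in. Scrublet in scanpy 1.11.5 marked at most 0.0634% of barcodes at its automatic threshold, and as an alternative the top-scoring 0.8% for every 1000 barcodes were left out, which took 9 members of S3 and 2 of D3. Genes named beyond 16 lists and the cell markers were at most 10 per direction and comparison, ranked by ratio. Each was at least 2-fold with an interval off 0. The kappa variable genes were looked at after their values were seen. The members, lists and rules were chosen with earlier results of these data known. Ratios and their intervals were checked on counts simulated under the Poisson model they assume, with no spread between cells. Python 3.11.15, numpy 2.4.6, scipy 1.17.1, pandas 2.3.3 and matplotlib 3.10.9 were used. Promoter sequences are from RefSeq (GRCm38.p6), and 3 of 3 genes matched by symbol.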

Additional observations from a re-analysis of the deposited data

How the results depend on the processing

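With at least 3 of the 6 rule genes precursors were 2.7% of kept cells at S3 and 0.419% at D3, pro/pre-B cells 65.7% and 66.7% of them, and cycling cells 52.5% at S3. With at most 5% mitochondrial transcripts precursors were 2.36% and 0.323%, and with no condition on Ighd and Fcer2a 9.1% and 1.36%, so in each case they were the lower at D3. With members thinned to 2000 UMIs pro/pre-B cells were 24.6% at S3 and cycling cells 25.1% at S3 and 25% at D3. The genes at least 2-fold were 106 for D3 against S3, 47 for pro/pre-B against later, 104 for cycling against resting and 225 for precursors against mature B cells. With at least 200 UMIs they were 38, 22, 47 and 119, the fewer for fewer genes counted. With fewer than 6000 detected genes they were 22 for pro/pre-B against later and 60 for cycling against resting cells. Means over cells in place of summed UMIs gave 243 for D3 against S3, and the cause was not tested. Of the alternatives added after seeing the data, D3 against S3 gave 49 within resting later cells, pro/pre-B against later 260 and 175 within cycling and resting cells of S3, and cycling against resting 572 and 280 within pro/pre-B and later cells of S3, where 1 library had to pass in place of both. Without the myeloid members the counts were 76, 46, 100 and 260. Among named genes that still held 100 UMIs, Ifitm2 (−0.94) and Ngp (0.18) changed direction between D3 and S3. Of 1042 values of named genes under alternatives 889 moved little, 151 moved by more than their interval and 2 changed direction. These 2 leave out genes that fell below 100 UMIs, such as Ifitm1 and Il1b. A planned mean over the 4 parts at equal weight could not be computed, since D3 held no resting pro/pre-B cell. No paired analysis was possible because each condition has 1 library. With 24 members at D3, a share of 33.3% has an interval from 15.6% to 55.3%, so differences in make-up below that width were not detectable.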

Other observations

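UMIs of kappa variable genes were unevenly spread over these genes in later precursors of S3, which was looked at after the values were seen. Igkv1-35 (chr6:70010949-70011673, minus strand, GRCm38) had a UMI in 18 of 130 later cells (13.8%, interval 8.42 to 21.0), in 1 of 69 pro/pre-B cells and in 3 of 303 mature B cells (0.99%, 0.205 to 2.87). It was found in 0 of 200 T cells, which allows up to 1.5%, and in 0 of 640 macrophages, up to 0.469%. The 135 cells with precursor genes and Ighd or Fcer2a held it in 20 (14.8%), a share like that of the later members. Of the 54 later cells with a UMI of a kappa variable gene it was the most abundant in 16, among 13 such genes, while in mature B cells 32 genes led in 92 cells. A larger number of cells can show more leading genes. None of the 54 cells held 3 UMIs of any such gene, so each rests on 1 or 2 UMIs. Whether these transcripts came from rearranged genes was not tested. Igkv1-117 had a UMI in 14 of 130 later cells (10.8%) and 13 of 303 mature B cells (4.29%). At D3 Igkv1-35 was found in 2 of 16 later and 0 of 108 mature B cells. Of the kappa variable genes 41 are listed in S3, and reads of similar ones may be split between them.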
